A study of Homo sapiens with 6 samples.

Results

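A set of 30 genes of cholesterol synthesis, sterol transport and their control by SREBP transcription factors was described here, chosen by name from a list ordered by pathway step. The choice was made with earlier results of these data known. All 30 were found among the 30178 gene IDs of the deposited table, and all 30 passed the filter on low values (a mean of at least 1 FPKM over the 6 libraries, met by 11481 genes). FPKM is the number of reads of a gene per kilobase of its length, scaled to the number of reads in the library. The list held 8 enzymes of the mevalonate arm, 3 enzymes from farnesyl diphosphate through squalene to lanosterol and 9 enzymes from lanosterol to cholesterol. It also held 3 proteins of sterol uptake and transport and 7 proteins of SREBP control. The members lie on 17 chromosomes.

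The RNA came from CAL27, an established human oral carcinoma line that the labels call adenosquamous, grown in DMEM with serum and the selection drug G418. Stable lines carried GFP-fused proteins per the labels, and 3 groups of 2 libraries each (A and B) were compared: an empty vector, constitutive wild-type MB21D2 and constitutive MB21D2 with the Q311E substitution. MB21D2 belongs to the Mab-21 family of proteins, and the design text of the series names the comparison of Q311E with wild type. Nothing in the labels tells whether A and B were grown as separate cultures, nor whether a line was 1 clone or a pool. The p-values therefore cover the spread among the libraries alone, which may be technical. In bulk RNA, fewer cells of a type and less RNA per cell cannot be told apart.

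Cells make cholesterol from acetyl-CoA. The mevalonate arm builds isoprene units, squalene is closed to lanosterol, and a chain of enzymes of the endoplasmic reticulum turns lanosterol into cholesterol. SREBP-2, encoded by SREBF2, is the main activator of these genes, and SREBP-1, encoded by SREBF1, acts more on fatty acid genes. When sterols are scarce, the escort protein SCAP carries SREBPs to the Golgi apparatus, where the proteases encoded by MBTPS1 and MBTPS2 release the active factor. When sterols are plentiful, INSIG proteins hold SCAP back. INSIG1 is itself an SREBP target, so its RNA is commonly read as a gauge of the pathway.

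Library totals recovered from the FPKM steps lay between 20645410 and 24147306 reads, and the members had between 93 reads (CYP51A1) and 15697 reads (FDFT1) in a library. MB21D2 had levels of 8.32 and 7.15 FPKM in vector cells, 104 and 106 in wild-type cells and 32.8 and 21.2 in Q311E cells, so the form of the protein and the level of its RNA differed together and cannot be told apart. Of 8 squamous epithelial markers all were present, with a summed level of 1311 to 1333 FPKM with the vector, 1004 to 1017 with wild type and 1187 to 1235 with Q311E. KRT6A, KRT17, TP63 and DSG3 among them were called lower in wild type than in vector. In Q311E against vector KRT6A was lower (-2.68, the 4th lowest of all genes tested), DSG3 was lower (-0.83) and KRT17 was higher (0.64), all called, on the log2 scale of the tests. Among the fibroblast markers DCN and PDGFRA were at or near 0, and the 6 markers summed to 2.58 to 3.14 FPKM with the vector, 1.80 to 2.13 with wild type and 2.88 to 3.58 with Q311E. The leukocyte marker PTPRC was listed at 0 in 5 of the 6 libraries, and the list summed to 1.83 to 3.19, 2.40 to 2.58 and 4.93 to 18.8 FPKM in these groups, nearly all of it CD14. Of the endothelial markers PECAM1 and VWF were near 0. CDH5 had 19.9 and 21.3 FPKM in vector, 15.9 and 15.4 in wild type and 22.6 and 35.2 in Q311E, the order that most members had. The part of these markers in the results was not tested. The 2 libraries of a group differed by a log2 SD over all tested genes of 0.192 for the vector, 0.145 for wild type and 0.436 for Q311E.

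Promoters of members are shown first, as a description of their letters. RefSeq windows on GRCh38.p14, from 250 bases before to 50 after a start site, matched 27 of the 30 members; ACAT2, FDFT1 and SQLE had none. Each window was searched on both strands for the letters TCACNCCAC, the core of the classical sterol regulatory element, and CCAAT, the box bound by NF-Y, a known partner of SREBPs. The GC box GGGCGG, bound by Sp1, and the E-box CACGTG were searched too. CCAAT was found in at least 1 window of 18 of the 27 members (66.7%), against 39.7% of all 27305 genes with a window. In 12 members (44.4%) a window held CCAAT at least 2 times, against 12.9% of all genes. GGGCGG was found in 23 members (85.2%), against 48.3% of all genes, and the E-box CACGTG in 4 members (14.8%), against 8.77%. TCACNCCAC was found in SREBF2 alone among the members, against 1.39% of all genes. The 9 matched members without CCAAT were PMVK, CYP51A1, LBR, NPC1, INSIG2, SREBF1, SCAP, MBTPS1 and MBTPS2. The 27305 genes were not limited to the 11481 genes that passed the filter, as all members did. The part of expression in these shares was not tested. A match is a run of letters, and no binding was measured here.

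Upstream stretches of 5 members, in the reading direction of each gene, were limited to bases outside the exons of protein-coding genes. They show SREBF2 for its sterol element letters, INSIG1, MSMO1 and STARD4 for their large differences between the lines, and LBR as the member that went the other way. Capitals mark TCACNCCAC or CCAAT in either orientation (CCAAT reads ATTGG on the other strand), and no marked runs overlap. Their positions are chr22:41832855-41833078 (forward strand), chr7:155297628-155297775 (forward strand), chr4:165327419-165327622 (forward strand), chr5:111512591-111512785 (reverse strand) and chr1:225428926-225429071 (reverse strand).
SREBF2: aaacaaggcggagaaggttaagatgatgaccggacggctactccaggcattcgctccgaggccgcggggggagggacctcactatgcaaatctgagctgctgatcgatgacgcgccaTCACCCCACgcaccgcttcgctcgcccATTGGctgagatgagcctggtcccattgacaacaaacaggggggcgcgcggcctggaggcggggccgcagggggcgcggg
INSIG1: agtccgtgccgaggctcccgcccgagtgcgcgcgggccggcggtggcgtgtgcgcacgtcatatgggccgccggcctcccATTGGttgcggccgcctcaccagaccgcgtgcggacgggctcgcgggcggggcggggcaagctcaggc
MSMO1: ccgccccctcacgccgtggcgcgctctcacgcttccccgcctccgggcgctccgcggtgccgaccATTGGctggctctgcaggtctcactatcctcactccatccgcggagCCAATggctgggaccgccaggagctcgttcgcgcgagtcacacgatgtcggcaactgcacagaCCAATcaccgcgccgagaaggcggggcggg
STARD4: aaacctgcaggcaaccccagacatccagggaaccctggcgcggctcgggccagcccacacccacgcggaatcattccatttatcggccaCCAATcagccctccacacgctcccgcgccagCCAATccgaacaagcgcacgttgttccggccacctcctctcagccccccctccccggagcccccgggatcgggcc
LBR: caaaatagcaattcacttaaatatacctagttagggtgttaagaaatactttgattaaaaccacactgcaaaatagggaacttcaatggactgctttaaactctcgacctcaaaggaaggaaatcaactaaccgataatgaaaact

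Most members were lowest in the wild-type line and highest in the Q311E line. In 21 of the 30 members both wild-type libraries lay below both vector libraries and both Q311E libraries lay above them, an order found in 11.4% of the 11481 genes tested. These were 6 mevalonate arm enzymes, all 3 enzymes of the squalene step, 7 later enzymes, STARD4, NPC1, INSIG1, SREBF2 and MBTPS1. LBR alone among the members had the opposite order without overlap, which 6.41% of all tested genes had. Summed over the 30 members, the level was 595.9 and 657 FPKM in the vector libraries, 345 and 342 in the wild-type libraries and 1016 and 995 in the Q311E libraries.

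**Figure D1:**
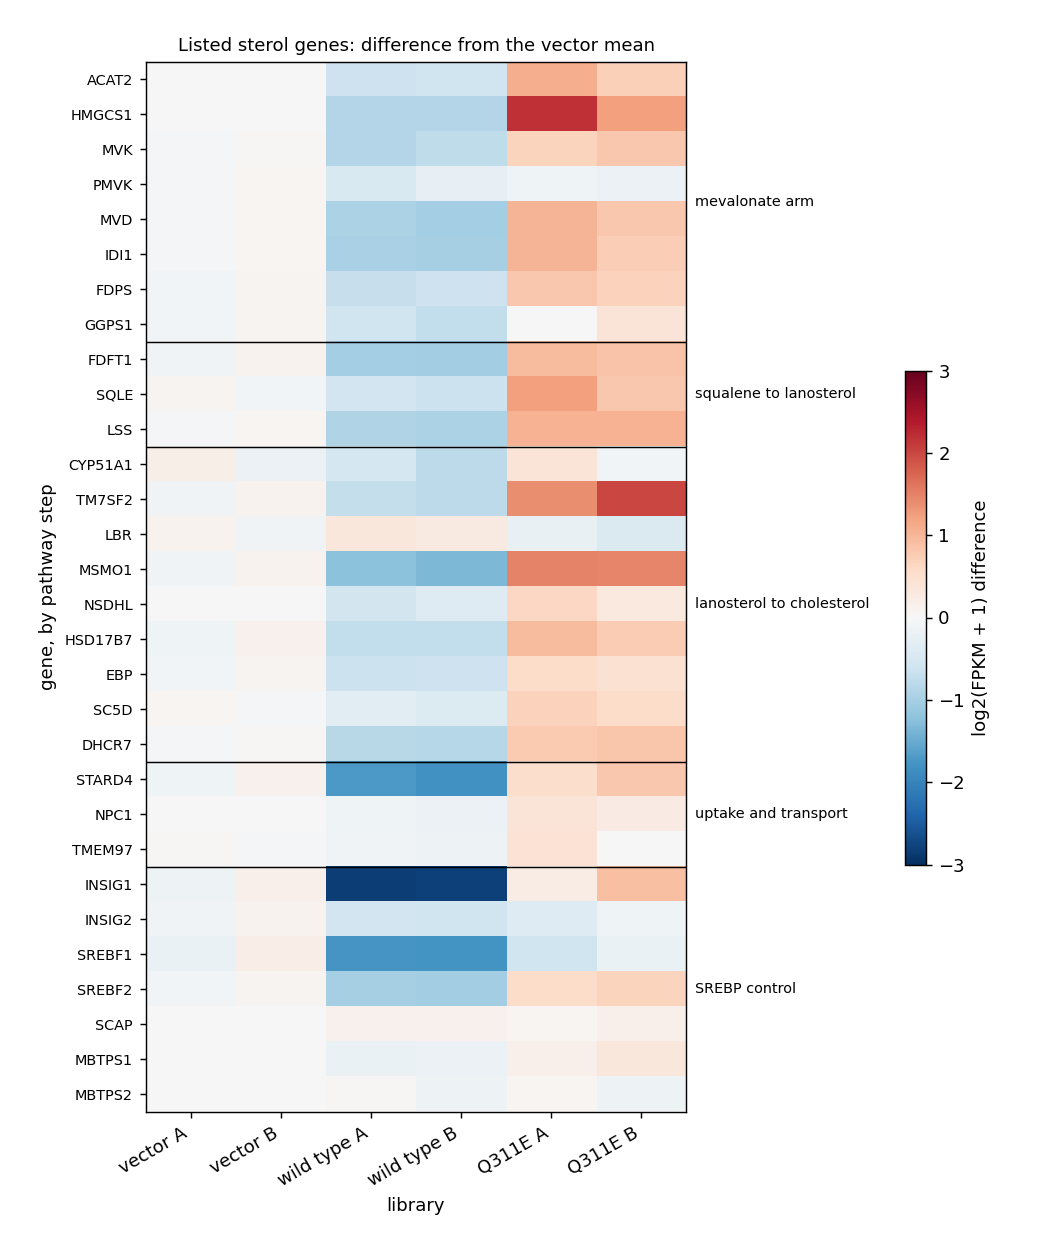
Difference of each member (rows, by pathway step) from its vector mean in each of the 6 libraries (columns), in log2(FPKM + 1); blue is lower and red is higher. INSIG1 is the darkest blue in both wild-type libraries and HMGCS1 in Q311E A the darkest red, while SCAP and MBTPS2 stay pale throughout.

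Tests were made with limma on log2(FPKM + 1), in a single model of the 3 groups, and p-values were adjusted (Benjamini-Hochberg) over all 11481 genes. A gene was called at an adjusted p under 0.05. Fold changes with ± are fitted log2 differences with their SE on that scale, which understates the change of genes with low FPKM. "Fold" without it is the ratio of mean FPKM. Both comparisons with the vector use the same vector libraries and are not independent.

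**Figure D2:**
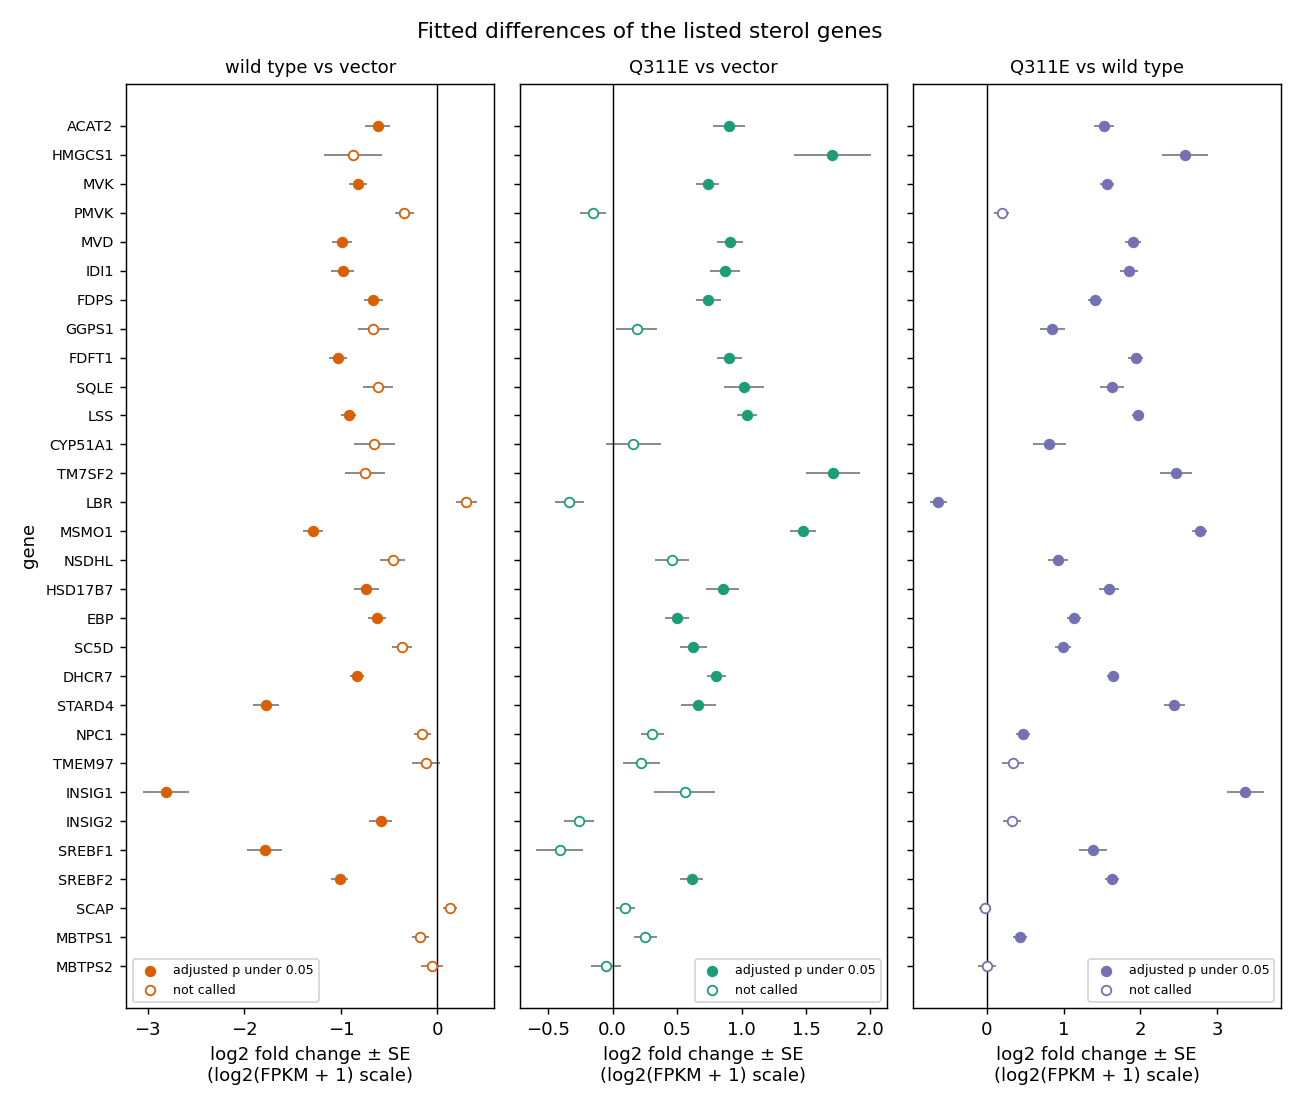
Fitted log2 difference ± SE of each member in the 3 comparisons, with filled points for genes called at an adjusted p under 0.05 and open points for the rest. Most points lie left of 0 for wild type against vector and right of 0 in both comparisons of Q311E, with scales that differ between panels.

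In the wild-type line 16 of the 30 members were called lower than in the vector line and 0 higher, with a median log2 difference of -0.66. Among all genes tested 8.76% were called lower and 3.54% higher, with a median of -0.05. At an unadjusted p under 0.05, 24 members were lower and 1, LBR, was higher, where 3631 of all 11481 genes passed in either direction. With recovered reads, limma-voom called 17 lower and 0 higher. In the Q311E line 17 members were called higher than in the vector line and 0 lower, with a median of 0.62. Of all genes 8.67% were called higher and 9.28% lower, with a median of 0.00. At an unadjusted p under 0.05, 20 members were higher and 1 (LBR) was lower, where 4088 of all 11481 genes passed in either direction. Here limma-voom called 17 higher and 0 lower. Between Q311E and wild type 24 members were called higher and 1, LBR, lower, with a median of 1.47, against 17.5% and 10.1% of all genes and a median of 0.05.

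The counts rest on a spread estimated from few libraries, with 1 value per gene shared by the 3 groups. The pairs differed most in Q311E (log2 SD 0.436, against 0.192 in vector and 0.145 in wild type). The numbers of all genes passing moved too in the fits below, so the shares above do not apply to them. In wild type against vector, no member call held in limma when a vector or wild-type library was dropped, and few of all genes were called. Dropping either Q311E library raised the calls among the members and among all genes. The members' median lay between -0.76 and -0.63 with any 1 library dropped. In Q311E against vector, no member call held when a vector library was dropped, and few of all genes were called. Dropping a wild-type library left fewer calls among the members and among all genes. With any 1 library dropped the members' median was 0.54 to 0.71. With only the vector and Q311E libraries fitted, 4 members were called higher (MVD, LSS, MSMO1 and DHCR7), as were 142 of all 11481 genes. The other 13 members called higher in the model of all 3 groups lost their call in that fit, also where this is not repeated below. In Q311E against wild type, no call of any gene held when a wild-type library was dropped. The members' median there was 1.38 to 1.49 with any 1 library dropped.

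In the mevalonate arm 5 of 8 members were called lower in wild type than in vector and 6 higher in Q311E than in vector. Between Q311E and wild type 7 were called higher. For this and each later step, 8.76% of all genes were called lower in wild type and 8.67% higher in Q311E, against vector. Of all genes 17.5% were higher and 10.1% lower in Q311E than in wild type. The arm opens with ACAT2, which joins acetyl-CoA units, and HMGCS1, which makes HMG-CoA. HMGCS1 (ENSG00000112972, chromosome 5, 43289395 to 43313512 on GRCh38, as all gene positions here) had 11.3 and 10.9 FPKM in vector A and B, 5.58 and 5.62 in the wild-type pair and 53.97 and 27.3 in the Q311E pair. All 3 groups were apart, but the Q311E libraries differed 1.98-fold, the widest gap between A and B of any member. It was 3.66-fold higher in Q311E than in vector (1.70 ± 0.30, adjusted p = 0.0209), a call lost with no filter or only these groups fitted. Wild type was 1.99-fold below vector (-0.88 ± 0.30, adjusted p = 0.115), which was not called although the libraries did not overlap, and Q311E was 7.26-fold above wild type (2.58 ± 0.30, adjusted p = 0.00741). ACAT2 had 19.6 and 20.1 FPKM with the empty vector, 12.5 and 12.7 with wild type and 43.1 and 33.5 with Q311E. It fell by 0.62 in wild type (adjusted p = 0.039) and rose by 0.90 in Q311E (adjusted p = 0.013) on the log2 scale, both against vector. The call in wild type was lost with quantile normalization, TPM scaling or no filter. Its exons share 397 bases with TCP1 on the other strand, which had 104.6 and 101 FPKM in vector, 135 and 137 in wild type and 96.2 and 65.6 in Q311E. They also share 1141 bases (26.5% of the exon bases of ACAT2) with SOD2 and 1458 (33.9%) with SOD2-OT1 on that strand. These 2 genes were listed at no more than 0.02 and 0.03 FPKM. The level of ACAT2 is therefore uncertain.

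The middle of the arm moved in the same directions, with PMVK apart. MVK, which phosphorylates mevalonate, had levels of 6.91 and 7.20 FPKM in vector cells, 3.40 and 3.72 in wild-type cells and 11.8 and 13.1 in Q311E cells. MVD, which makes isopentenyl diphosphate, had 15.4 and 16.95 FPKM in vector A and B, 7.86 and 7.46 in the wild-type pair and 33.7 and 29.02 in the Q311E pair. Both were called in all 3 comparisons, with log2 differences between Q311E and wild type of 1.56 ± 0.09, adjusted p = 0.00185 and 1.90 ± 0.10, adjusted p = 0.00164. The exons of MVK share 306 bases with MMAB, a gene of vitamin B12 metabolism on the other strand, which itself stood at 6.50 and 8.62, 3.32 and 3.40, and 11.9 and 13.5 FPKM in vector, wild type and Q311E. The shared bases are 4.7% of the exon bases of MVK. Without knowledge of the use of strand the reads over them cannot be told apart. PMVK, the kinase between MVK and MVD, had 13.4 and 14.6 FPKM with the empty vector, 9.98 and 11.7 with wild type and 12.8 and 12.2 with Q311E and was called in none of the comparisons, although its wild-type libraries lay below the other groups (Q311E against wild type 0.19 ± 0.10, adjusted p = 0.198).

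IDI1, the isomerase of isoprene units, had levels of 9.71 and 10.7 FPKM in vector cells, 4.72 and 4.61 in wild-type cells and 21.5 and 17.5 in Q311E cells. FDPS, which makes farnesyl diphosphate, had 29.6 and 33.8 FPKM in vector A and B, 19.1 and 20.1 in the wild-type pair and 55.8 and 51.6 in the Q311E pair. Both genes were called lower in wild type and higher in Q311E, against vector. The wild-type call of FDPS was lost with no filter, and the Q311E calls of both with only the vector and Q311E groups fitted. The Q311E mean was 4.18-fold above the wild-type mean for IDI1 and 2.74-fold for FDPS. GGPS1, which turns farnesyl into geranylgeranyl diphosphate for protein prenylation and so leads away from sterols, had 3.94 and 4.60 FPKM with the empty vector, 2.48 and 2.17 with wild type and 4.23 and 5.86 with Q311E. It was called only between Q311E and wild type (0.85 ± 0.16, adjusted p = 0.0194), a call lost with no filter or only these groups fitted. Its vector and Q311E libraries overlapped. TBCE on the same strand covers 37.3% of its exon bases, so its level is uncertain. TBCE had 0.46 and 0.38 FPKM in vector, 0.71 and 0.55 in wild type and 0.72 and 0.54 in Q311E.

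Squalene and lanosterol formation was covered by FDFT1, SQLE and LSS, of which 2 were called lower in wild type and all 3 higher in Q311E, against vector. FDFT1, squalene synthase, was the most abundant member, with levels of 67.8 and 78.3 FPKM in vector cells, 35.6 and 34.8 in wild-type cells and 142 and 133 in Q311E cells. LSS, which closes the ring of lanosterol, had 28.1 and 31.1 FPKM in vector A and B, 15.4 and 14.9 in the wild-type pair and 62.3 and 61.7 in the Q311E pair, and its Q311E libraries differed by a factor of only 1.01. The log2 differences from vector were -1.03 ± 0.10, adjusted p = 0.00852 for FDFT1 and -0.92 ± 0.08, adjusted p = 0.00744 for LSS in wild type, and 0.91 ± 0.10, adjusted p = 0.00756 and 1.04 ± 0.08, adjusted p = 0.00474 in Q311E. SQLE, a rate-controlling oxidase, had 17.4 and 15.6 FPKM with the empty vector, 10.8 and 10.1 with wild type and 40.3 and 29.5 with Q311E. It rose in Q311E by 1.02 (adjusted p = 0.0155), and its difference of -0.61 in wild type was not called (adjusted p = 0.0626).

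**Figure D3:**
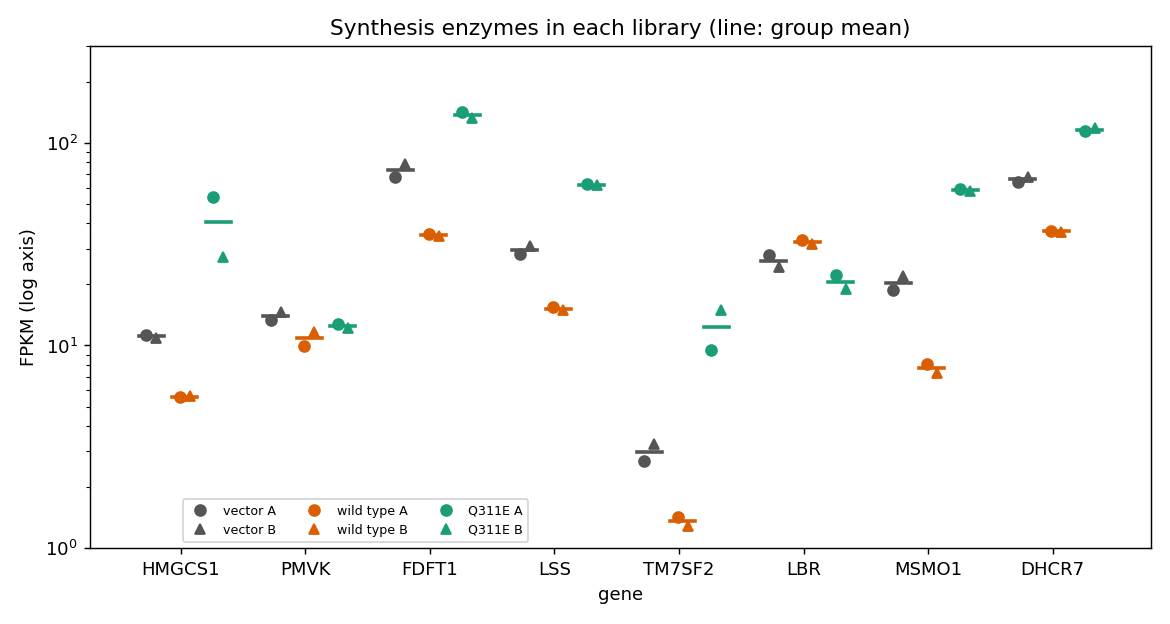
FPKM (log axis) of 8 synthesis enzymes in each library, circles for A and triangles for B, with a line at the group mean. FDFT1, LSS, MSMO1 and DHCR7 show 3 separate groups with Q311E on top, LBR shows the reverse order, and PMVK shows wild type lowest and vector highest.

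From lanosterol to cholesterol, 8 of 9 enzymes were called higher in Q311E than in wild type and LBR was called lower. Against vector 4 of the 9 were called lower in wild type and 6 higher in Q311E. MSMO1 (ENSG00000052802, chromosome 4, 165327623 to 165343160), which removes methyl groups from the sterol, had levels of 18.7 and 22.1 FPKM in vector cells, 8.09 and 7.35 in wild-type cells and 59.2 and 57.5 in Q311E cells. The groups were far apart and the pairs close. It was 2.64-fold lower in wild type (-1.29 ± 0.10, adjusted p = 0.00659) and 2.86-fold higher in Q311E (1.48 ± 0.10, adjusted p = 0.00349) than in vector, and 7.57-fold higher in Q311E than in wild type (2.77 ± 0.10, adjusted p = 0.00164).

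TM7SF2 and LBR are known to reduce the same sterol double bond, and LBR also anchors chromatin at the inner nuclear membrane. Between wild type and Q311E the 2 genes changed in opposite directions. TM7SF2 (ENSG00000149809, chromosome 11, 65111845 to 65116384) had 2.70 and 3.27 FPKM in vector A and B, 1.43 and 1.29 in the wild-type pair and 9.53 and 15.02 in the Q311E pair. It was 4.12-fold higher in Q311E than in vector (1.71 ± 0.21, adjusted p = 0.00989) and 9.02-fold higher than in wild type (2.46 ± 0.21, adjusted p = 0.00412), while wild type against vector was not called (-0.75 ± 0.21, adjusted p = 0.0772). LBR (ENSG00000143815, chromosome 1, 225401502 to 225428925) had 28.02 and 24.4 FPKM with the empty vector, 33.2 and 31.7 with wild type and 22.2 and 18.97 with Q311E. It was 1.58-fold lower in Q311E than in wild type (-0.63 ± 0.11, adjusted p = 0.0173) and not called against vector in either line (adjusted p = 0.138 and 0.096). In FPKM, LBR exceeded TM7SF2 by 10.4-fold and 7.47-fold in the vector libraries, 23.3-fold and 24.5-fold in wild type and 2.34-fold and 1.26-fold in Q311E. LBR therefore had the higher level in every library, by the least margin in Q311E.

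DHCR7, which performs the last step in one branch of the route, had levels of 64.1 and 67.8 FPKM in vector cells, 36.7 and 36.2 in wild-type cells and 114 and 118 in Q311E cells. It was called in all 3 comparisons, by -0.84, 0.80 and 1.64 on the log2 scale for wild type against vector, Q311E against vector and Q311E against wild type. EBP, a sterol isomerase, had 23.99 and 27.3 FPKM in vector A and B, 15.9 and 16.4 in the wild-type pair and 38.2 and 35.3 in the Q311E pair, and was called in all 3 as well. Its call in Q311E against vector was lost with no filter, only these groups fitted or 1 weight per group, and its call in wild type against vector with no filter. HSD17B7, a sterol ketone reductase, had 2.37 and 3.01 FPKM with the empty vector, 1.19 and 1.22 with wild type and 6.12 and 5.19 with Q311E and was also called in all 3. Against vector its Q311E call was lost with only these groups fitted or 1 weight per group, and its wild-type call with no filter. A pseudogene that carries its name reached 3.15 FPKM in the table, so its exact level is uncertain.

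SC5D, a desaturase, had levels of 2.58 and 2.28 FPKM in vector cells, 1.74 and 1.59 in wild-type cells and 4.53 and 4.05 in Q311E cells. NSDHL, which removes a carbon from the sterol, had 21.2 and 21.6 FPKM in vector A and B, 14.4 and 16.2 in the wild-type pair and 33.6 and 26.5 in the Q311E pair. SC5D was called higher in Q311E than in vector (adjusted p = 0.0189), a call lost with no filter, only these groups fitted or 1 weight per group. NSDHL was not (adjusted p = 0.0662), and neither was called in wild type against vector (adjusted p = 0.0808 and 0.0778). CYP51A1, the demethylase that acts first on lanosterol, had 3.37 and 2.40 FPKM with the empty vector, 1.69 and 1.24 with wild type and 4.08 and 2.66 with Q311E. It was the lowest member, its vector and Q311E libraries overlapped, and it was called only for Q311E against wild type (0.81 ± 0.21, adjusted p = 0.0434). A second gene model on the same strand covers 79.4% of its exon bases, so its level is uncertain, and the call was lost with quantile normalization, TPM scaling, no filter, only these groups fitted or 1 weight per group.

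Of the proteins of sterol transport, STARD4, which ferries sterols between membranes, changed most. STARD4 (ENSG00000164211, chromosome 5, 111496033 to 111512590) had levels of 11.3 and 13.7 FPKM in vector cells, 3.08 and 2.80 in wild-type cells and 18.4 and 22.5 in Q311E cells. It was 4.25-fold lower in wild type than in vector (-1.77 ± 0.14, adjusted p = 0.00605), and 1.63-fold higher in Q311E (0.67 ± 0.14, adjusted p = 0.0301). The Q311E call was lost with no filter, only these groups fitted or 1 weight per group. NPC1, which exports cholesterol from lysosomes, had 5.87 and 5.86 FPKM in vector A and B, 5.24 and 5.06 in the wild-type pair and 7.95 and 7.09 in the Q311E pair and was called only between Q311E and wild type, at 1.46-fold (0.47 ± 0.09, adjusted p = 0.0193), a call lost with TPM scaling or only these groups fitted. TMEM97, an NPC1-binding sterol-regulated membrane protein, had 15.8 and 15.05 FPKM with the empty vector, 14.3 and 13.9 with wild type and 21.2 and 15.6 with Q311E and was not called in any comparison (adjusted p at least 0.127).

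Of the 7 genes of SREBP control 4 were called lower in wild type than in vector (INSIG1, INSIG2, SREBF1 and SREBF2), but only SREBF2 was called higher in Q311E than in vector. INSIG1 (ENSG00000186480, chromosome 7, 155297776 to 155310235) had levels of 43.2 and 54.4 FPKM in vector cells, 6.02 and 6.10 in wild-type cells and 56.4 and 91.5 in Q311E cells. Wild type was 8.05-fold below vector (-2.81 ± 0.24, adjusted p = 0.00743), the 13th lowest log2 difference of all 11481 genes tested, and Q311E was 12.2-fold above wild type (3.37 ± 0.24, adjusted p = 0.0028), the 5th highest. Q311E lay 1.52-fold above vector without a call (0.56 ± 0.24, adjusted p = 0.161), and Q311E A was close to vector B. INSIG2, its relative, had 7.12 and 8.26 FPKM in vector A and B, 4.84 and 4.71 in the wild-type pair and 5.68 and 6.87 in the Q311E pair. INSIG2 was lower in wild type than in vector (-0.59 ± 0.12, adjusted p = 0.0378) and its Q311E libraries were below the vector libraries without a call (-0.26 ± 0.12, adjusted p = 0.182). The wild-type call was lost with median scaling, quantile normalization, the length trend removed or no filter. The ratio of INSIG1 to INSIG2 in FPKM was 6.07 and 6.58 in vector, 1.24 and 1.30 in wild type and 9.94 and 13.3 in Q311E.

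SREBF2 (ENSG00000198911, chromosome 22, 41833079 to 41907308) had 38.1 and 42.7 FPKM with the empty vector, 19.8 and 19.2 with wild type and 59.6 and 65.01 with Q311E, in the same order as most enzymes. It was called lower in wild type (-1.01 ± 0.09, adjusted p = 0.00838) and higher in Q311E (0.61 ± 0.09, adjusted p = 0.0143) than in vector. SREBF1 (ENSG00000072310, chromosome 17, 17810399 to 17837002) had levels of 49.4 and 65.2 FPKM in vector cells, 15.8 and 15.6 in wild-type cells and 36.9 and 48.97 in Q311E cells. It fell in wild type, 3.65-fold (-1.79 ± 0.18, adjusted p = 0.0094), but the Q311E libraries lay below both vector libraries without a call (-0.41 ± 0.18, adjusted p = 0.174), and Q311E exceeded wild type 2.74-fold (1.38 ± 0.18, adjusted p = 0.0092). The ratio of SREBF2 to SREBF1 was 0.771 and 0.655 in the vector libraries, 1.25 and 1.23 in wild type and 1.61 and 1.33 in Q311E, so SREBF1 had the higher level in vector and SREBF2 in both other lines. FPKM does not separate the transcript forms of SREBF1.

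The escort SCAP and the protease MBTPS2 were called in no comparison. SCAP had 16.0 and 15.5 FPKM in vector A and B, 17.4 and 17.2 in the wild-type pair and 16.4 and 17.5 in the Q311E pair, with log2 differences from vector of 0.13 ± 0.07 in wild type and 0.10 ± 0.07 in Q311E. MBTPS2 had 3.37 and 3.35 FPKM with the empty vector, 3.46 and 2.95 with wild type and 3.52 and 2.92 with Q311E, and the groups overlapped (adjusted p at least 0.77). MBTPS1 had levels of 15.4 and 14.9 FPKM in vector cells, 13.1 and 13.3 in wild-type cells and 17.02 and 19.5 in Q311E cells and was called only for Q311E against wild type (0.43 ± 0.09, adjusted p = 0.0241), a call lost with no filter or with only these groups fitted.

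**Figure D4:**
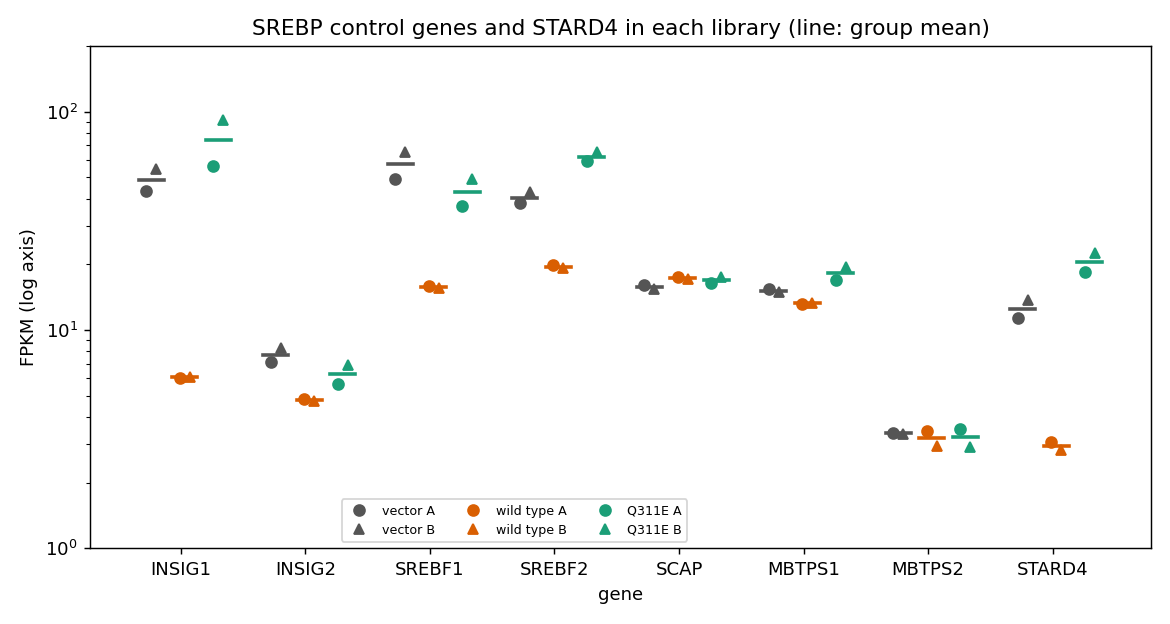
FPKM (log axis) of the 7 SREBP control genes and STARD4 in each library, circles for A and triangles for B, with a line at the group mean. INSIG1, SREBF1, SREBF2 and STARD4 are lowest in wild type, SREBF1 lies below vector in Q311E, and SCAP and MBTPS2 lie level.

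The 2 Q311E libraries differed by gene. HMGCS1, SQLE, CYP51A1, TMEM97 and ACAT2 were higher in Q311E A, by 1.98, 1.37, 1.53, 1.36 and 1.29-fold, and INSIG1, TM7SF2, GGPS1 and SREBF1 were higher in Q311E B, by 1.62, 1.58, 1.39 and 1.33-fold. Other pairs showed gaps of like size for 2 of these genes: CYP51A1 was 1.40-fold higher in A in vector and 1.37-fold in wild type, and the ratio of A to B for SREBF1 was 0.757 in vector and 0.754 in Q311E. Of the 20 enzymes 16 were higher in Q311E A. The share of all tested genes higher in Q311E A was not counted, so this cannot be called particular to the enzymes. Taken against the vector mean, the members' median log2 difference was 0.59 for Q311E A, 0.68 for Q311E B, -0.68 for wild type A and -0.73 for wild type B.

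Of 51 other genes of the pathway on a second list, 47 passed the filter. In wild type against vector 8 of the 47 were called lower and 1 higher (median -0.10), against 8.76% and 3.54% of all genes. In Q311E against vector 5 were called lower and 6 higher (median 0.13), against 9.28% and 8.67% of all genes, which is near that background. Between Q311E and wild type 4 were called lower and 15 higher (median 0.17), against 10.1% and 17.5%. A list of 11 genes covered the branches that lead from the mevalonate arm to dolichol, ubiquinone and protein prenylation, and also ACAT1, a mitochondrial acetoacetyl-CoA thiolase that is no enzyme of those branches. On it ACAT1 and RABGGTB were called lower in Q311E than in vector, where 9.28% of all genes were, and PDSS1 and RABGGTB lower in Q311E than in wild type, where 10.1% were. The list of redox partners of the sterol enzymes had 4 tested genes. Among these was ERG28, which is a scaffold of the sterol demethylation enzymes rather than a redox partner. Its levels were 16.5 and 18.2 FPKM in vector A and B, 12.8 and 12.04 in the wild-type pair and 32.9 and 34.8 in the Q311E pair. ERG28 was called in all 3 comparisons (-0.45, 0.93 and 1.38), and CYB5B, an electron carrier, was called higher in Q311E against both (0.43 and 0.69).

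In uptake and storage, LIPA, the lysosomal enzyme that frees cholesterol from its esters, had 26.8 and 29.4 FPKM with the empty vector, 15.1 and 14.04 with wild type and 28.1 and 30.5 with Q311E and was lower in wild type (-0.90 ± 0.09, adjusted p = 0.00891). VLDLR, a lipoprotein receptor, and NPC2, the lysosomal partner of NPC1, were called higher in Q311E than in vector (0.73 and 0.64), and the receptor SCARB1 was lower (-0.57). Of 13 tested genes of turnover and further control, MARCHF6, a ubiquitin ligase that removes SQLE, fell in wild type (-0.51, adjusted p = 0.0173). PGRMC1, a haem-binding partner of sterol enzymes, had levels of 72.03 and 71.9 FPKM in vector cells, 104 and 104 in wild-type cells and 53.6 and 49.5 in Q311E cells, the reverse of the enzymes' order, and was called in all 3 comparisons.

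Among 8 fatty acid genes driven by SREBP-1, 4 fell in wild type (FASN, ACSS2, SCD and FADS1) against vector, where 8.76% of all genes did. In Q311E 2 rose against vector (FASN and ACSS2), where 8.67% of all genes did. Of the 8 genes, 6 were called higher in Q311E than in wild type, against 17.5% of all genes. ACSS2, which makes acetyl-CoA from acetate, had 5.77 and 6.57 FPKM in vector A and B, 4.12 and 4.16 in the wild-type pair and 16.2 and 17.4 in the Q311E pair. LXR receptors sense oxidised sterols and switch on cholesterol export. Their targets ABCA1 and ABCG1, exporters of cholesterol, were below the filter and not tested, and were named after their values were seen. ABCG1 had 1.09 and 1.44 FPKM with the empty vector, 0.0430 and 0.0383 with wild type and 0.0230 and 0.0151 with Q311E. ABCA1 had levels of 0.765 and 0.757 FPKM in vector cells, 0.0895 and 0.0458 in wild-type cells and 0.150 and 0.189 in Q311E cells. Both were highest in vector, and both other lines lay below it. MYLIP, an LXR target that degrades lipoprotein receptors, fell in both lines against vector (-0.61 in wild type, -0.53 in Q311E).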

How the data were processed

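RNA sequencing of 6 CAL27 libraries was deposited by the authors as 1 table of FPKM values for 30178 human Ensembl gene IDs, per the file headers and name. The labels' protocols name QIAGEN for extraction and Illumina for the libraries. CASAVA and the builds mm8 and mm9 are named without a role, per the submitters' processing notes, although the IDs are human. How reads were aligned and counted, with which annotation and strandedness, is not given in the sources used here. As a result, reads of overlapping genes may be shared.

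Symbols came from a name table that matched 29993 IDs, and positions and exon lengths from GENCODE release 29 (GRCh38). Whole reads (tolerance 0.001) were recovered for 11471 of the 11481 genes that averaged 1 FPKM or more (99.91%), with lengths fitted between 0.25 and 4 times the GENCODE length where that did not give whole reads (15 of 30 members kept the GENCODE length).

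limma 3.58.1 in R 4.3.3 tested log2(FPKM + 1) (pseudocount 1) with all 3 groups in 1 fit, a variance trend and 3 residual degrees of freedom, two-sided, with Benjamini-Hochberg adjustment over the 11481 genes and a threshold of 0.05. The fit was tested on simulated counts with the same dispersion for every gene and group. It recovered 90% to 99% of genes changed by 1 or 2 on the log2 scale, with 17 to 25 false calls per comparison. This cannot show how the fit does where groups spread unequally, as the pairs did here. Alternatives, 17 per result (16 for the 5 members with a mean under 5 FPKM, which that filter removes), changed the pseudocount, the filter, the scaling, the test, the libraries in the fit, the group weights, the length trend and the replicate block. All 30 members were named. Of the other pathway genes at most those called were to be named; ABCA1 and ABCG1 were added. The members and lists were chosen with earlier results of these data known. Promoter windows came from RefSeq (GRCh38.p14). Tables and figures used Python 3.11.15, numpy 2.4.6, pandas 2.3.3 and matplotlib 3.10.9.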

Additional observations from a re-analysis of the deposited data

How the results depend on the processing

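Each comparison was recomputed under 17 alternatives (16 for 5 members that a filter at 5 FPKM removes), all planned with earlier results known. For wild type against vector the members' median of -0.66 was -0.85 with a pseudocount of 0.1, -0.75 with mean FPKM of at least 5, -0.62 with median scaling, -0.59 with quantile normalization, -0.78 with TPM scaling, -0.86 with limma-voom and -0.60 with the length trend removed. For Q311E against vector the median of 0.62 was 0.66 with a pseudocount of 0.1, 0.67 with mean FPKM of at least 5, 0.67 with quantile normalization, 0.68 with TPM scaling and 0.67 with limma-voom. For Q311E against wild type the median of 1.47 was 1.52 with a pseudocount of 0.1, 1.56 with mean FPKM of at least 5, 1.42 with median scaling or quantile normalization, 1.52 with limma-voom and 1.44 with the length trend removed. Leaving out 1 library gave medians of -0.76 to -0.63, 0.54 to 0.71 and 1.38 to 1.49 in these comparisons.

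Without a filter on low values 393, 1210 and 1608 genes were called in place of 1412, 2061 and 3162, while more genes were tested. With only the 2 groups compared the counts were 5273, 262 and 973, and with 1 weight per group 5508, 868 and 2001. Members called lower in wild type against vector were then 25 under both, with 1 called higher under both, and members called higher in Q311E against vector were 4 with only the 2 groups compared. The cause was not tested. With 1 library left out, the lone library of its group is assumed to vary like the other groups. This gave 7 to 5262, 3 to 5683 and 0 to 6961 genes called. Members called lower ranged from 0 to 25, 0 to 2 and 0 to 1, and members called higher from 0 to 1, 0 to 22 and 0 to 25. Where dropping wild type A or B left 0 genes called between Q311E and wild type, limma gave 2878 and 2794 genes at an unadjusted p under 0.05.

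The directions of 4 members near 0 depended on settings, and no reversed value was called. MBTPS2 in wild type against vector was 0.0396 with quantile normalization, and -0.142 to 0.0326 when 1 library was left out. In Q311E against wild type MBTPS2 was -0.0386 with median scaling, -0.195 with quantile normalization, -0.0257 with TPM scaling and -0.0145 with the length trend removed, and -0.0986 to 0.108 when 1 library was left out (-0.0827 without wild type B). In Q311E against vector, leaving out 1 library gave -0.153 to 0.0533 for MBTPS2, -0.0075 to 0.384 for GGPS1 (called at 0.384, without Q311E A) and -0.0747 to 0.397 for CYP51A1 (-0.0193 without vector B). SCAP in Q311E against wild type ranged from -0.0734 to 0.014.

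What the letters A and B stand for is not given in the labels. With the replicate block 1299, 1942 and 3264 genes were called, and 18 members lower, 17 higher and 24 higher. The differences between A and B correlated at 0.387 for vector with Q311E, -0.026 for vector with wild type and -0.006 for wild type with Q311E. Depth limits the lowest members, with 93 reads of CYP51A1 and 94 of TM7SF2 in a library.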
